A study of Mus with 4 samples.

Results

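The nuclear-encoded genes of respiratory complexes I to IV were measured in Six2+ nephron progenitor cells (NPCs) with and without a floxed prorenin receptor (*PRR*) gene. Members were chosen among non-control probes as those whose accession maps to a symbol beginning with *Nduf* followed by a, b, c, s or v, to *Sdha*, *Sdhb*, *Sdhc* or *Sdhd*, or to a symbol beginning with *Uqcr*, *Uqcc* or *Cox4* to *Cox8*. Described here are 88 of the 41174 probes and 71 of the 16355 genes that could be named, in 8 groups. They comprise 5 core, 28 accessory and 5 assembly genes of complex I, the 4 genes of complex II, 8 subunit and 2 assembly genes of complex III, and 12 ubiquitous and 7 tissue-restricted genes of complex IV. A further 10 symbols that fit the pattern, among them the core subunit *Ndufv2*, had no matched probe and were not analysed here.

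The respiratory chain lies in the inner mitochondrial membrane. Complex I takes electrons from NADH and complex II, succinate dehydrogenase, takes them from succinate. Both pass them to ubiquinone, complex III hands them to cytochrome c, and complex IV, cytochrome c oxidase, reduces oxygen. Complexes I, III and IV pump protons, and the gradient drives ATP synthase. All subunits of complex II are nuclear-encoded, whereas the other complexes combine nuclear and mitochondrial gene products. In the kidney, proximal tubule cells depend strongly on this chain, and progenitors rely more on glycolysis.

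*Mut* cells were Six2Cre+/PRR flox/flox and *WT* cells were Six2Cre+/PRR+/+ from littermates, so both genotypes carried the *Six2GFPCre TGC* transgene, which drives Cre and GFP in nephron progenitors. GFP+ cells were sorted from E15.5 kidneys and each RNA sample was a pool of several kidneys. On arrays 1, 2 and 3, *Mut* pools in Cy3 were hybridized against the *WT* pools of the same number in Cy5. The fourth, the *WT* vs *WT* array, compared pool 2 (Cy3) with pool 1 (Cy5) of the controls. The 4 arrays shared 1 slide. Genotype and dye coincide on arrays 1 to 3, so an effect of the dye on a probe and an effect of the genotype cannot be told apart there. *WT* vs *WT* values of log2 Cy3/Cy5 are therefore given beside the *Mut*/*WT* ratios of most genes named. They come from pools that arrays 1 and 2 share.

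Values are log2 *Mut*/*WT* ratios after loess normalization, given as the mean of 3 arrays with its SD, or single-channel levels as normalized log2 signals. Genes with more than 1 probe are represented by the brightest. A probe was called differentially expressed at a Benjamini-Hochberg adjusted P under 0.05 (limma, over 41166 probes) and a fold change over 1.5. Between 45.1% and 51.1% of probes were well above background in Cy3, and between 54.2% and 58.4% in Cy5. *Atp6ap2*, the gene of PRR, had log2 *Mut*/*WT* ratios of -0.08, -0.19 and -0.25, averaging -0.17 (adjusted P = 0.0353, limma, n = 3 arrays). Between the *WT* pools its log2 Cy3/Cy5 was -0.19, so this probe did not separate the genotypes and the directions below depend on the dyes named in the labels. Lower PRR mRNA in the sorted *Mut* cells was measured in the study by qRT-PCR, not analysed here. With the dyes read that way, the direction of *Lhx1*, *Jag1* and *Fgf8* is opposite to the one given in the study and that of *Hbb-y*, an embryonic β-globin gene, is the same. A lower level per cell and fewer expressing cells cannot be told apart in pooled RNA.

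Most respiratory chain genes differed little between *Mut* and *WT* NPCs. *Cox7c*, a small subunit of complex IV, was called and was lower in *Mut*. This 1 of 88 probes stands beside 2.01% of all probes called and 4.44% of the probes well above background, and the 1 of 71 genes beside 2.02% of all named genes. By limma 0 member probes were called higher, 0 passed 1.5-fold as higher at an unadjusted P under 0.05, and 0 did so by the methods' *t*-test. Over all probes 599 (1.46%) were called lower and 228 (0.554%) higher. This order depended on the processing, since with the deposited log ratios 1216 were called lower and 1489 higher.

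The median log2 *Mut*/*WT* over the 71 genes was 0.02, with per-array medians of 0.02, 0.05 and 0.03 on arrays 1, 2 and 3. The *WT* vs *WT* array had a median of 0.02, and the median of all genes well above background was -0.01 in *Mut*/*WT*. The SD across these genes was 0.20, against 0.26 for all genes well above background. For 67 of 71 genes the 95% confidence interval of the ratio lay within 1.5-fold in both directions, as it did for 95.3% of all named genes and 92.2% of those well above background. The other 4, whose interval reached beyond 1.5-fold, were *Cox7c*, *Ndufa10*, *Cox7a2l* and *Cox5b*. On the *WT* vs *WT* array the members ranged from -0.32 to 0.26, and 0 of them passed 1.5-fold, which 0.0947% of all probes did.

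Without the fold minimum, 21 genes had ratios above 0 and 8 had ratios below 0 at an adjusted P under 0.05 (limma), and 42 did not pass. Over all named genes these shares were 14.4% above and 18.6% below 0. By probe, 26 of 88 lay above and 14 below 0, beside 13.2% and 16.4% of all probes (29.6% in either direction) and 22.4% and 25.7% of those well above background. These probe counts were 20 and 11, 15 and 6, and 22 and 17 without arrays 1, 2 and 3. They changed with the processing, to 10 above and 5 below when the deposited ratios were used, 10 and 6 at a normexp offset of 16, 17 and 9 with the channels of an array unpaired, and 0 and 0 both without the offset and with median centring. Centring moved the median of all genes well above background to -0.50, and *Ndufs3*, *Ndufa12*, *Uqcr11*, *Cox5b* and *Cox6b2*, which lay above 0 with loess, were then below 0 and still above that median. The 21 genes had a median log2 *Mut*/*WT* of 0.23 (range 0.15 to 0.48), and the same genes had a median log2 Cy3/Cy5 of 0.12 (range -0.02 to 0.26) on the *WT* vs *WT* array. The 8 genes had a median of -0.22 (range -0.71 to -0.18) and of -0.04 (range -0.32 to 0.01) on the *WT* vs *WT* array. When a dye term for each probe was estimated from that array, *Cox7c* was the 1 member probe that passed the adjusted P. This term rests on 1 array and holds the difference between *WT* pools 2 and 1 as well as the dye. The same pools are the controls on arrays 1 and 2, which the fit does not take into account. Ratios with the dye term are also less precise than those without it. The plot of all members by array shows each *Mut*/*WT* ratio beside its *WT* vs *WT* value.

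**Figure D1:**
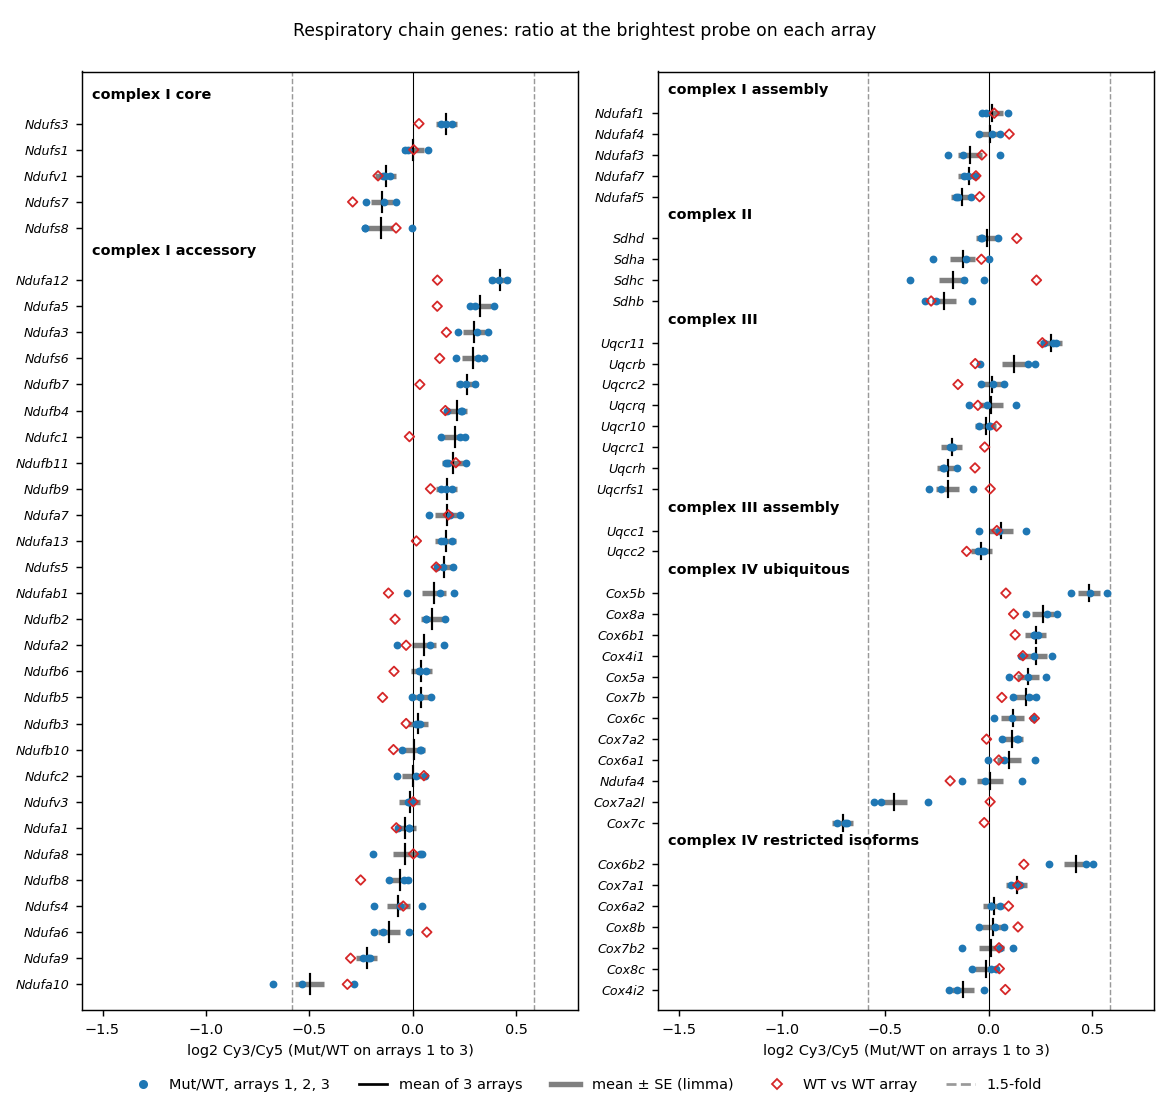
Log2 Cy3/Cy5 at the brightest probe of each of the 71 genes, grouped by complex; blue points are arrays 1, 2 and 3 (*Mut*/*WT*), the black tick and grey bar are their mean ± SE (limma), red diamonds are the *WT* vs *WT* array, and dashed lines mark 1.5-fold. The mean of *Cox7c* lies beyond the lower line, and 67 of 71 genes have a 95% confidence interval within 1.5-fold.

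Of the core subunits of complex I, which carry the flavin, the iron-sulfur clusters and the quinone site, 0 of the 5 described were called and 0 passed 1.5-fold at an unadjusted P under 0.05 (limma). *Ndufs3*, a subunit of the peripheral arm, was the highest, with ratios of 0.16, 0.19 and 0.14, a mean of 0.16 (SD 0.03, adjusted P = 0.0336) beside 0.03 between the *WT* pools, and its *Mut* and *WT* levels overlapped. *Ndufs8*, an iron-sulfur subunit, was the lowest. Its *Mut* levels were 9.63, 9.59 and 9.74, and its *WT* levels 9.86, 9.82 and 9.75 on the same arrays, with 9.84 for pool 2 and 9.93 for pool 1 on the *WT* vs *WT* array. *Mut* lay below every *WT* reading, on array 3 by little. The ratios were -0.23, -0.23 and -0.00, a mean of -0.16 (SD 0.13, adjusted P = 0.0706), beside -0.08 between the *WT* pools. *Ndufs7*, another iron-sulfur subunit, and *Ndufv1*, the flavin-binding subunit, both chosen after their values were seen, likewise had *Mut* levels below every *WT* reading, with mean ratios of -0.15 and -0.13. Neither passed the adjusted P (0.0558 and 0.0752), and their *WT* vs *WT* ratios were -0.29 and -0.17. *Ndufs1*, which encodes a large iron-sulfur subunit, was at 0.00. The 5 core genes had a median of -0.13 (-0.14, -0.14 and -0.02 on arrays 1 to 3) beside a *WT* vs *WT* median of -0.08.

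The 28 accessory genes of complex I, whose products surround the core and stabilise it, lay mostly above 0 with loess. Of these, 12 had ratios above 0 and 2 below 0 at the adjusted P, 14 did not pass, and 0 were called. Their median was 0.07, with 0.14, 0.09 and 0.04 on arrays 1, 2 and 3, against 0.00 on the *WT* vs *WT* array. With each array centred on its median instead of loess, the same group had a median of -0.57 while all genes well above background had one of -0.50, so that the group lay above the others with loess and below them with centring.

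*Ndufa12*, an accessory subunit of the matrix arm, had the highest ratio of the group. Its *Mut* levels were 13.30, 13.20 and 13.12, and its *WT* levels 12.85, 12.82 and 12.70 on the same arrays. The remaining array gave 13.06 for pool 2 and 12.94 for pool 1, below every *Mut* reading. The ratios of 0.46, 0.38 and 0.42 had a mean of 0.42 (SD 0.04, adjusted P = 0.000128, limma), 1.34-fold higher and short of 1.5-fold. Between the *WT* pools it was 0.12. The other probes of *Ndufa12* were at 0.28 and 0.39. At the latter, *WT* pool 2 in Cy3 reached 11.45 and lay within the *Mut* readings of 11.40 to 11.51.

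*Ndufa10*, another accessory subunit of complex I, had the lowest ratio of the group. Its *Mut* levels were 10.25, 10.33 and 10.65, against 10.93, 10.86 and 10.94 in *WT* and 10.78 and 11.10 on the *WT* vs *WT* array. *Mut* and *WT* readings did not overlap. The ratios were -0.68, -0.53 and -0.28, a mean of -0.50 (SD 0.20, adjusted P = 0.000304, limma), 1.41-fold lower. Between the *WT* pools it was -0.32, and with the dye term the ratio was -0.18 (adjusted P = 0.605). Without array 3, where the ratio was smallest in size, *Ndufa10* passed 1.5-fold at -0.61. *Ndufs6*, chosen after its values were seen, is held by 3 probes at 0.34, 0.24 and 0.29 (0.14, 0.15 and 0.13 between the *WT* pools), and its *Mut* levels lay above every *WT* reading at each of them.

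The assembly factors of complex I, which build the complex and are not part of it, gave 0 of 5 genes past the adjusted P. By limma 0 of them were called, and 0 passed 1.5-fold at an unadjusted P under 0.05. *Ndufaf1*, the highest at 0.02 (SD 0.07, adjusted P = 0.859), and *Ndufaf5*, the lowest at -0.13 (SD 0.04, adjusted P = 0.0774), had *Mut* and *WT* levels that overlapped. *Ndufaf7*, at -0.10 (SD 0.03, adjusted P = 0.179) and chosen after its values were seen, had *Mut* levels of 6.96 to 6.99 below *WT* levels of 7.05 to 7.17. *Ndufaf4* is held by 3 probes that did not give 1 direction, with -0.23 (adjusted P = 0.0108), 0.17 (adjusted P = 0.0294) and, at the brightest, 0.01 (adjusted P = 0.938). At the probe at -0.23 *Mut* lay below every *WT* reading, and at the others the readings overlapped. The probe at 0.17 was well above background on 2 of the 3 arrays. Which transcripts of *Ndufaf4* these probes bind was not determined.

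**Figure D2:**
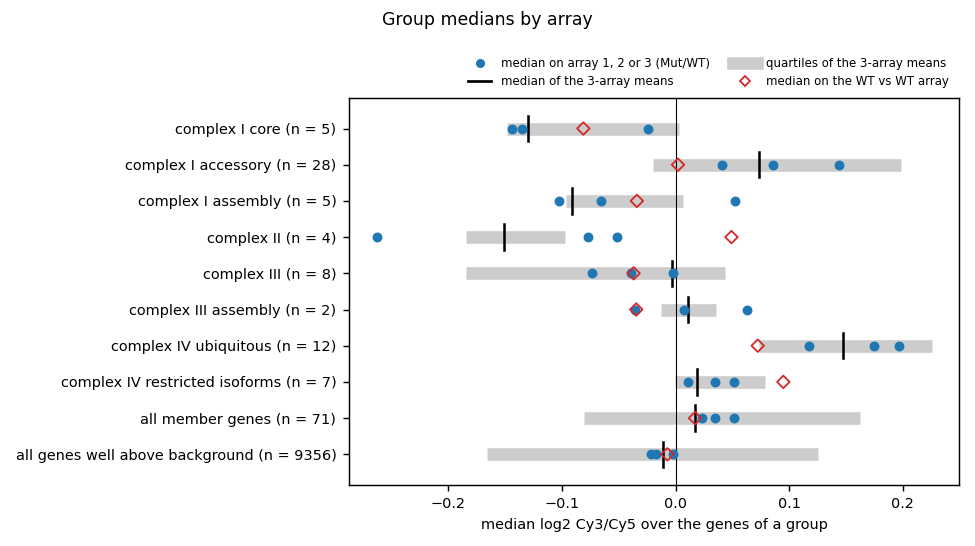
Median log2 Cy3/Cy5 over the genes of each group; blue points are the medians on arrays 1, 2 and 3, black ticks the median of the 3-array means, grey bars its quartiles across genes, and red diamonds the *WT* vs *WT* array. With loess the accessory genes of complex I (0.07) and the ubiquitous genes of complex IV (0.15) lie above 0 and complex II (-0.15) below, whereas with median centring all 3 groups lie below the median of the genes well above background (-0.50).

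In complex II 0 of the 4 genes were called, and 1 passed the adjusted P. *Sdhb*, the iron-sulfur subunit, had *Mut* levels of 10.90, 10.72 and 10.95 and *WT* levels of 11.16, 11.03 and 11.03, with 10.98 and 11.26 on the *WT* vs *WT* array. The *Mut* readings lay below all *WT* readings, by little at pool 2 in Cy3. The mean ratio was -0.22 (SD 0.12, adjusted P = 0.0159), the *WT* vs *WT* ratio was -0.28, and with the dye term *Sdhb* was at 0.06, on the other side of 0.

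*Sdha* encodes the flavoprotein subunit and is held by 2 probes. The brighter gave -0.27, -0.00 and -0.11, a mean of -0.13 (SD 0.13, adjusted P = 0.135), and the dimmer gave -0.66, -0.40 and -0.18, a mean of -0.42 (SD 0.24, adjusted P = 0.00184). Between the *WT* pools they were at -0.04 and -0.08. *Mut* and *WT* levels overlapped at the brighter probe and did not at the dimmer. The membrane anchors *Sdhc*, at -0.17 (SD 0.19, adjusted P = 0.0727), and *Sdhd*, at -0.01 (SD 0.05, adjusted P = 0.921), overlapped between the genotypes. *Sdhc* ran from -0.38 on array 1 to -0.02 on array 3 and was at 0.23 between the *WT* pools. The group median was -0.15, with -0.26, -0.08 and -0.05 on arrays 1, 2 and 3 and 0.05 on the *WT* vs *WT* array, so the spread between arrays was large beside it.

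Complex III was divided, with 1 of 8 subunit genes above and 3 below 0 at the adjusted P, 4 that did not pass, and a median of -0.00. *Uqcr11*, a small supernumerary subunit, was the highest at 0.30 (SD 0.03, adjusted P = 0.00106), with *Mut* levels of 13.80 to 14.02 above *WT* levels of 13.46 to 13.72. Its ratio between the *WT* pools was 0.26, however, and with the dye term it was at 0.04 (adjusted P = 0.897). *Uqcrfs1*, the Rieske iron-sulfur protein, was the lowest at -0.20 (SD 0.11, adjusted P = 0.0208), beside 0.01 between the *WT* pools. Its readings overlapped, since *WT* levels on the *WT* vs *WT* array were 11.41 and 11.41 and *Mut* levels ran from 11.30 to 11.48. *Uqcrc1*, another subunit gene, chosen after its values were seen, is held by 2 probes at -0.35 and -0.18. The assembly factors *Uqcc1*, at 0.06 (SD 0.11, adjusted P = 0.476), and *Uqcc2*, at -0.04 (SD 0.01, adjusted P = 0.629), did not pass, although a dimmer probe of *Uqcc1* was at -0.20 (adjusted P = 0.0303).

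The ubiquitous subunit genes of complex IV held both the highest ratio of all members and a called one. Of the 12 genes, 6 had ratios above 0 and 2 below 0 at the adjusted P, and 4 did not pass. The group median was 0.15, with 0.17, 0.12 and 0.20 on arrays 1, 2 and 3 and 0.07 on the *WT* vs *WT* array. With median centring it was -0.54, below the -0.50 of all genes well above background.

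*Cox7c* had normalized log2 signals of 9.45, 9.35 and 9.31 in *Mut* and of 10.15, 10.08 and 9.99 in *WT* on arrays 1, 2 and 3. Within these arrays *Mut* lay below *WT* by nearly the same amount each time, with ratios of -0.70, -0.73 and -0.68. The mean was -0.71 (SD 0.03, n = 3; adjusted P = 4.19e-06, limma), or 1.63-fold lower in *Mut*. On the *WT* vs *WT* array, however, pool 2 (Cy3) read 9.24 and pool 1 (Cy5) read 9.27, both below every *Mut* reading. Over all 4 arrays the readings of the genotypes therefore overlapped.

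The same RNA pool in the same dye, *WT* pool 1, was thus at -0.88 on the *WT* vs *WT* array relative to array 1. The median size of this difference was 0.10 over the 71 genes and 0.14 over the 17919 probes well above background, of which 0.419% differed by at least as much as *Cox7c*. Relative to *WT* pool 2 in the same dye the *Mut* mean of *Cox7c* was at 0.12. Of the probes called lower, 27.9% had this second reading of *WT* pool 1 closer to the *Mut* mean of arrays 1 to 3 than to their *WT* mean. *Cox7c* kept its call with the dye term (-0.68, adjusted P = 0.00894), which uses ratios within arrays, and with each array left out (-0.72 to -0.69). It lost the call without the normexp offset (-0.73, adjusted P = 0.111), with median centring and by the methods' *t*-test after adjustment. It is held by 1 probe. The plot of *Cox7c* and *Ndufa10* by setting gives these values.

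**Figure D3:**
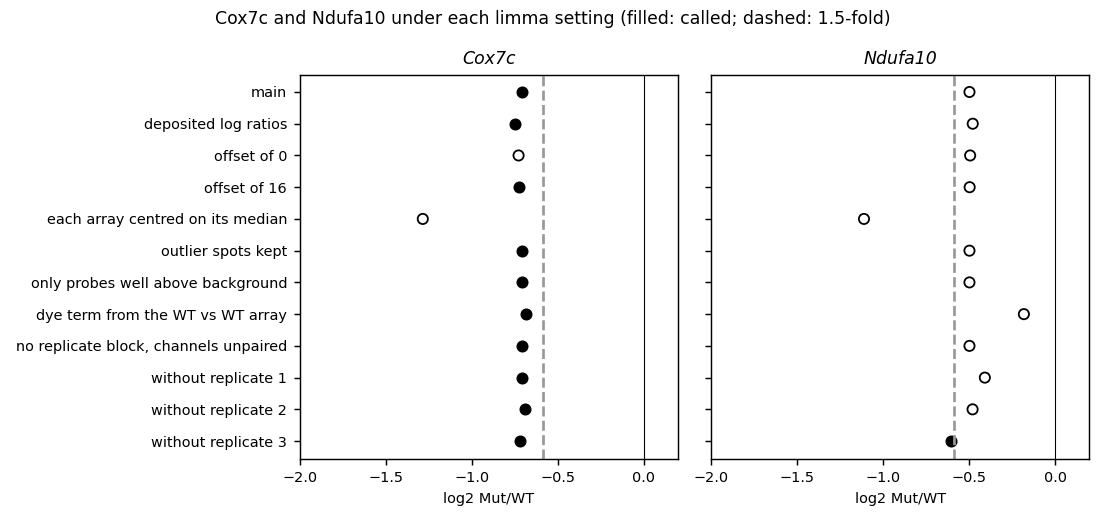
Log2 *Mut*/*WT* of *Cox7c* and *Ndufa10* under each limma setting (rows); filled circles passed the adjusted P and 1.5-fold (dashed line), open circles did not. *Cox7c* stays between -1.28 and -0.68 and is open at 2 of these settings, and *Ndufa10* runs from -1.11 to -0.18 and is filled in 1 row, without replicate 3.

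*Cox5b*, a subunit on the matrix side, had the highest log2 *Mut*/*WT* of all members. Its *Mut* levels were 14.21, 14.04 and 13.95 and its *WT* levels 13.64, 13.56 and 13.55, with 13.79 and 13.71 on the *WT* vs *WT* array. All *Mut* readings lay above all *WT* readings. The ratios of 0.57, 0.49 and 0.40 had a mean of 0.48 (SD 0.09, adjusted P = 7.5e-05, limma), short of the fold minimum. The *WT* vs *WT* ratio was 0.08, and with the dye term *Cox5b* was at 0.40 (adjusted P = 0.116).

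*Cox7a2l*, chosen after its values were seen, encodes a factor that joins complexes III and IV into supercomplexes. Its *Mut* levels of 10.83, 10.66 and 10.90 lay below *WT* levels of 11.35, 11.22 and 11.20 and below 11.09 and 11.08 on the *WT* vs *WT* array. Its ratios averaged -0.46 (SD 0.14, adjusted P = 0.000218), 1.37-fold lower, beside 0.01 between the *WT* pools. *Cox7a2l* was at -0.46 with the dye term as well, where its adjusted P was 0.106.

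**Figure D4:**
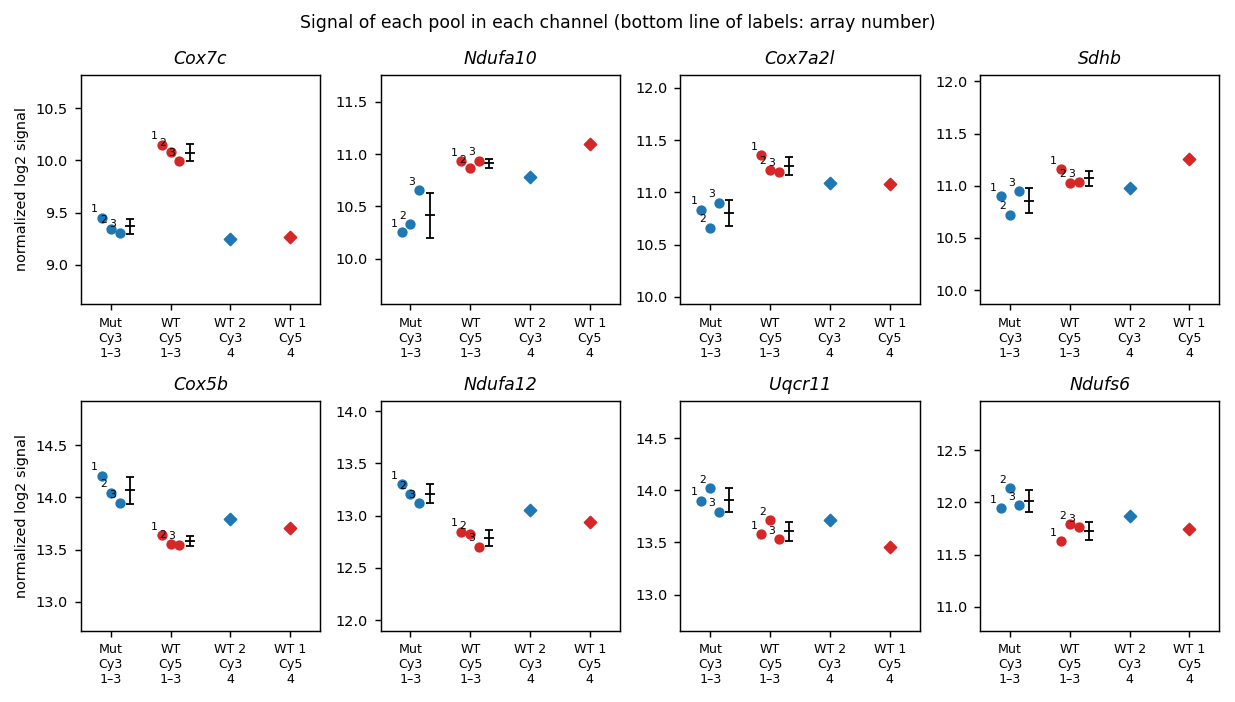
Normalized log2 signal of 8 genes in each pool; small numbers give the array, circles are arrays 1 to 3 (*Mut* in Cy3, blue; *WT* in Cy5, red) with bars for the mean ± SD of 3 readings, and diamonds are the *WT* vs *WT* array (pool 2 in Cy3, blue; pool 1 in Cy5, red). *Ndufa10* and *Cox7a2l* in *Mut* lie below all *WT* readings, whereas both *WT* diamonds of *Cox7c* (9.24 and 9.27) lie below its *Mut* circles.

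Among the tissue-restricted isoforms of complex IV, which include heart and muscle, lung and testis forms, *Cox4i2*, *Cox6a2*, *Cox7b2*, *Cox8b* and *Cox8c* did not reach the level of well above background in *Mut* or *WT* on arrays 1 to 3. They were the only 5 of the 71 genes in that state, and no fold is given for them. The normalized log2 signals of *Cox4i2*, from 6.06 to 6.10 in *Mut* and from 6.12 to 6.26 in *WT*, were therefore at background and set no order. *Cox6b2*, an isoform known from testis, was measured on all arrays and was the highest of the group, at 0.47, 0.51 and 0.29, a mean of 0.42 (SD 0.11, adjusted P = 0.000253). Its readings overlapped, since *WT* pool 2 in Cy3 reached 9.19 and the lowest *Mut* reading was 9.18. Between the *WT* pools it was at 0.17.

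Taking the 3 *Mut* readings against all 5 *WT* readings, 17 of 71 genes (23.9%) lay above without overlap and 8 (11.3%) below. Over all named genes these shares were 7.58% and 10.5%, and over genes well above background 10.1% and 14.1%. By probe, 20 of 88 lay above and 11 below, beside 6.83% and 9.9% of all probes. Of the 17 genes, 12 were accessory genes of complex I and 4 were ubiquitous genes of complex IV, with *Uqcr11* as the other one. Of the 8 genes, 3 were core genes of complex I and 1 was *Cox4i2*, which was not well above background. This count rests on levels set across arrays, and 4 of the 5 *WT* readings were in Cy5 while all *Mut* readings were in Cy3. Its relation to the dye was not tested.

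Of the 13 genes with several probes, 9 had probes on 1 side of 0 and 4 did not. The median distance between the highest and the lowest probe of a gene was 0.17, which is of the size of the ratios at most members, and the largest was 0.40 for *Ndufaf4*. *Ndufa7*, *Ndufab1* and *Uqcc1* were the others with probes on both sides.

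Other mitochondrial genes were read from lists of 17 complex V subunits, 3 genes of cytochrome c and cytochrome c1 (*Cycs*, *Cyct* and *Cyc1*), 17 complex IV assembly factors, 11 other assembly factors, 13 genes of the tricarboxylic acid cycle and 11 of mitochondrial transcription and biogenesis. Of these 72 genes 0 were called by limma, 0 passed 1.5-fold at an unadjusted P under 0.05, 14 had ratios above and 16 below 0 at the adjusted P, and their median was -0.00. Over all named genes 14.4% lay above 0, 18.6% lay below and 2.02% were called. *Cyct* and *Lyrm7*, an assembly factor of complex III, were not well above background in *Mut* or *WT* on arrays 1 to 3, and *Cox10*, an assembly factor of complex IV, was so in *Mut* on 1 of these arrays. Among complex V genes 2 lay above and 2 below 0, among the cytochrome c and c1 genes 1 (*Cycs*, at 0.30) and 0, among complex IV assembly factors 3 and 4, among other assembly factors 4 and 3, in the tricarboxylic acid cycle 1 and 4, and in biogenesis 3 and 3.

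The extremes of those lists, chosen after their values were seen, were short of 1.5-fold. *Ogdh*, the E1 subunit of the 2-oxoglutarate dehydrogenase complex, was the lowest at -0.50 (SE 0.088, adjusted P = 0.0014), with -0.83, -0.42 and -0.24 on arrays 1, 2 and 3 and -0.08 between the *WT* pools, and was called without array 3 at -0.62. *Ppargc1b*, a coactivator of mitochondrial biogenesis, was the highest at 0.49, beside 0.12 between the *WT* pools. *Nrf1*, a transcription factor for many respiratory chain genes, was at -0.40 but also at -0.28 between the *WT* pools. *Cox20*, an assembly factor of complex IV, was at 0.43 beside 0.19.

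Markers of the sorted cells and of other kidney cells were read beside the shares of all named genes above (14.4%) and below (18.6%) 0 at the adjusted P. Of 11 nephron progenitor markers, 10 were well above background in both channels on arrays 1 to 3, 2 had ratios above and 5 below 0 at the adjusted P, and *Six2* was at -0.18. Of 11 markers of differentiating nephrons 6 lay above 0 at the adjusted P and 2 were called higher (3 passed the adjusted P with the dye term), and of 8 stromal markers 6 lay above 0, with 3 called higher, and 2 below (0 passed with the dye term). Ureteric bud and endothelial markers gave 0 past the adjusted P, of 8 and 6 genes, and macrophage markers 1 above and 1 below of 4. Of the differentiating nephron, ureteric bud and endothelial markers, 7, 5 and 1 were well above background in both channels on arrays 1 to 3. Another 3, 1 and 2 of them were so in neither channel of any of these arrays.

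Of 8 erythroid markers 2 were well above background in both channels on arrays 1 to 3 and 4 in none, 4 lay above 0 at the adjusted P, and *Hba-a1*, an adult α-globin gene, was called higher at 1.17, beside -0.22 between the *WT* pools. The log2 of the summed erythroid signal was 11.8 to 11.9 in *Mut* and 10.8 to 10.95 in *WT* on arrays 1 to 3, but 11.8 and 12.0 in the *WT* pools of the *WT* vs *WT* array. For stroma the summed level was 12.8 to 13.0 in *Mut* and 12.5 in each *WT* pool on arrays 1 to 3, and 12.8 and 12.6 on the *WT* vs *WT* array. For differentiating nephrons it was 11.6 to 11.7 in *Mut* and 11.2 to 11.3 in *WT* on arrays 1 to 3, but 11.7 in both *WT* pools of the *WT* vs *WT* array, above every *Mut* sum. The part of these cells in the respiratory chain ratios was not tested.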

How the data were processed

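RNA of 6 pools of FACS-isolated Six2+ cells (3 *Mut*, 3 *WT*) was measured on 4 dual-colour arrays, with array, pool and dye taken from the labels. Agilent Feature Extraction 10.7.3.1 files were deposited. Their intensity values, as the authors deposited them, are the median spot signal and median local background of both channels, without normalization. The deposited log10 ratio of red over green was background-subtracted and dye-normalized by the authors with the same program. The deposited flags mark spots above background, saturated or outlying. Of the 180072 log10 ratios in the deposited series table, 0 differed from these by more than 1e-06.

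Background was corrected with normexp (offset 50) on all spots. Ratios were normalized by loess within arrays, with control and outlier spots given no weight in the fit. Control spots and the outliers among the others (122 to 162 per array) were then left out. Spots of a probe were averaged, and log2 ratios computed from the deposited intensity were turned to *Mut*/*WT*. Levels were Aquantile-normalized. Ratios were tested against 0 with limma 3.58.1 in R 4.3.3, where the precision came from 3 arrays and from moderating variances over all probes. Tested on simulated data with a log2 change of 1 at 200 of 41166 probes, this fit recovered 177 (88.5%) with 2 false calls. That change is larger than the one at any member, and the simulated noise was independent, without dye or array effects. The simulation therefore gives neither the recovery of changes as small as those of the members nor the false calls due to dye. Deviations from the group means correlated over probes between both pools on an array (r = 0.387, 0.429 and 0.319 on arrays 1, 2 and 3), so the pools of an array were taken as paired. The labels do not tell whether pools came from separate litters, so P-values describe these pools only. Those of limma rest on the spread of a probe between arrays, moderated towards the spread common to all probes. At *Cox7c* the unadjusted P was 1.64e-08 by limma and 0.000456 by the methods' *t*-test, which uses the probe's own spread.

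Symbols came from a RefSeq gene table of assembly GRCm38.p6, matched by accession for 22951 probes (55.7%) and used for names only. Members, lists and the rule for named genes (every member called, the highest and lowest of each group, all complex II genes, members whose probes passed in opposite directions, and any beyond 1.5-fold between *WT* pools) were chosen with earlier results of these data known. *Sco2*, *Pet100*, *Pet117*, *Nubpl*, *Sdhaf1*, *Sdhaf3*, *Pprc1*, *Hbb-b1*, *Ahsp*, *Csf1r* and *Cd68* of the lists were not matched. A gene that fits the member rule is not reported here and was left out of every value and count over members. No probe or gene sequence was used here. GeneSpring values, named in the methods, were not analysed here.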

Additional observations from a re-analysis of the deposited data

How the results depend on the processing

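Of the 88 member probes, 1 (*Cox7c*) was called in the main setting. *Cox7c* was also the 1 probe called with the deposited log ratios, with the dye term and by the methods' *t*-test at the unadjusted P. Over all probes these settings called 6.57%, 0.785% and 1.68%. The member count was 0 without the normexp offset, with median centring and by the *t*-test after adjustment, and each of these 3 settings also gave 0 calls over all 41166 probes. Without the fold minimum it was 40 (26 higher, 14 lower). It was 1 with an offset of 16, with outlier spots kept and with only probes well above background, beside 3.83%, 2.01% and 4.44% of the probes tested. Taking each gene's median probe called 1 gene. Leaving out each array gave 1 to 2 member probes, the added one being *Ndufa10* without array 3. Over all probes 1.47%, 2.06% and 2.93% were called without arrays 1, 2 and 3. Unpairing the channels, both *t*-test settings and the adjusted P alone keep each mean ratio, so no sign could change there. Without the replicate block, with the channels of an array unpaired, the count was 1, beside 2% of all probes. The median over the genes was then 0.017, the main value by construction. That median, 0.017 in the main setting, was 0.053 with the deposited log ratios, 0.044 with the dye term, 0.026 to 0.031 without each array, and -0.56 with median centring, where 66 of 71 genes and most genes well above background (median -0.50) lay below 0. Centring likewise gave -0.57 on the *WT* vs *WT* array, against 0.02 in the main setting. *Cox7c* lost its call at -1.28 (adjusted P = 0.0817) with centring. Of the values of the named genes other than *Cox4i2*, which was at background, under alternatives, 223 kept direction and side of the threshold, 9 gained the call (8 of them because the fold minimum was dropped, the other being *Ndufa10* without array 3), 3 lost it, and 17 changed sign, none of them called. With centring these were *Ndufs3* (-0.48), *Ndufa12* (-0.27), *Ndufaf1* (-0.52), *Ndufaf4* (-0.56), *Uqcr11* (-0.41), *Uqcc1* (-0.47), *Cox5b* (-0.23) and *Cox6b2* (-0.12), of which *Ndufaf1* and *Ndufaf4* lay below the median of the genes well above background and the others above it. With the dye term they were *Ndufaf4* (-0.091), *Ndufaf1* (-0.011), *Sdhb* (0.064) and *Uqcc2* (0.071). Leaving out each array gave -0.017 to 0.033 for *Ndufaf4*, -0.023 to 0.040 for *Ndufaf1*, -0.035 to 0.0056 for *Sdhd* and -0.00011 to 0.113 for *Uqcc1*. Of the other mitochondrial genes the deposited log ratios called 2 as higher (*Ttc19* at 0.68 and *Ppargc1b* at 0.69), and leaving out each array 0 to 1, *Ogdh* without array 3. Naming members by a gene name column was not run, since the columns at hand did not include one. The cause of these shifts was not tested.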
